A study of Mus musculus with 8 samples.

Results

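The genes examined here were 10 identity genes of cortical and hippocampal interneurons, chosen by symbol from the 25834 genes of a count table from mouse hippocampus. They were the GABA synthesis and packaging genes Gad1, Gad2 and Slc32a1, the neuropeptide genes Sst, Npy, Vip and Cck, the calcium-binding protein genes Pvalb and Calb2, and Reln, which encodes an extracellular matrix protein. Each of the 10 passed the filter on low counts, which kept 16251 genes. SAP97-cKO mice carried the genotype Nestin-cre+/-; SAP97fl/fl, and SAP97 is the protein of the gene Dlg1, a scaffold of synapses. Controls were littermates that were Nes-cre+/-, SAP97fl/fl or wild-type, and the sources used here do not say which of these each control library came from. One library was made per male mouse, with 4 control and 4 SAP97-cKO mice, and no age was stated for the mice that were sequenced. The Nestin promoter drives Cre in neural progenitors, so that the deletion reaches neurons and glia in general and is not directed at interneurons.

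GABAergic interneurons are the inhibitory neurons of local hippocampal circuits. They make GABA with the glutamate decarboxylases encoded by Gad1 and Gad2 and load it into vesicles with the transporter encoded by Slc32a1. Subclasses are told apart by what else they make: parvalbumin cells inhibit the cell body and axon initial segment of pyramidal neurons, somatostatin cells inhibit dendrites and often also make neuropeptide Y, VIP cells and many calretinin cells contact other interneurons, and one class of basket cell makes cholecystokinin. Reelin is secreted by Cajal-Retzius cells and by interneurons of the outer layers. Several of these genes are not exclusive to interneurons, since pyramidal neurons express Cck, mossy cells and Cajal-Retzius cells express Calb2, and neurons outside the hippocampus express Pvalb and Calb2.

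The promoter sequences of the 4 neuropeptide genes and of Pvalb are shown because these genes tell the interneuron subclasses apart and Pvalb had the smallest p of the 10. They are from RefSeq on GRCm38.p6, which had entries for 9 of the 10 genes (Calb2 was not matched), and each is the 150 bases before the RefSeq start of the gene, 5′ to 3′ on the strand of the gene. The exception is Sst, whose RefSeq start lies 114 bases inside the Sst gene of GENCODE, so that only 30 bases around the match are printed, all of them inside that gene. Capitals mark matches to the cyclic AMP response element TGACGTCA, to its shorter form TGACG and to the TATA sequence TATAAA, each searched on both strands, so that a match on the opposite strand is printed as its reverse complement.
Sst, chr16:23890874-23890903, minus strand: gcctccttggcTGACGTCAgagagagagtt
Vip, chr10:5639068-5639217, plus strand: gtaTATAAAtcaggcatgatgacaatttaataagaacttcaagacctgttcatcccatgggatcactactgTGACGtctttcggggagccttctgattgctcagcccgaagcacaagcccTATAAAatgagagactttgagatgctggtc
Cck, chr9:121495695-121495844, minus strand: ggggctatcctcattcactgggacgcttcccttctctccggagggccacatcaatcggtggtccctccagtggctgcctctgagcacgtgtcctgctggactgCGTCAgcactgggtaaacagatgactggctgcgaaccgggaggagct
Npy, chr6:49822560-49822709, plus strand: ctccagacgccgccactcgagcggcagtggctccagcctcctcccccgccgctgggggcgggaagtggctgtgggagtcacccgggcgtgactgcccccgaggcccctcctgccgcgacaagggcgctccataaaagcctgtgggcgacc
Pvalb, chr15:78206401-78206550, minus strand: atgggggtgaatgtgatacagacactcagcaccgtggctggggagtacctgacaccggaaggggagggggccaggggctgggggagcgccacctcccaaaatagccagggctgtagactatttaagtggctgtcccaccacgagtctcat
The full element was found only in the Sst window among those of the 9 genes, beginning 48 bases before its RefSeq start, and 1.36% of the 32851 RefSeq windows of this length held it. The shorter form, which the full element contains on both strands, was found in the windows of Sst, Vip, Cck and Gad2 and in 13.3% of all windows. TATAAA was found in the windows of Vip and Gad1 and in 7.57% of all windows. These matches are descriptions of letters, and binding at them was not measured here.

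Levels are given as CPM, the count of a gene brought to a common library total after TMM scaling, which adjusts libraries for differences in composition. Libraries held 37388177 to 37426572 counts, a narrow range because the reads had been resampled to a common depth, and the scaling factors lay between 0.964 and 1.03. The targeted gene Dlg1 was at 116 ± 9.0 CPM in control (SD, n = 4) and 64.0 ± 12.6 CPM in SAP97-cKO (SD, n = 4), which was 55.2% of control, with a log2 fold change of -0.86 (SE 0.12, adjusted p = 0.143 by edgeR). This level counts reads over the whole gene. The study reported a far larger fall for reads on a single exon of it, and less SAP97 protein in the hippocampus. Markers of hippocampal excitatory neurons were detected in every library, with a summed level of 5738 to 7907 CPM over 9 genes. Most of this sum came from Camk2a and Slc17a7, at means of 3954 and 1292 CPM in control, while Emx1 was at 12.5 CPM. Prox1 was lowest in SAP97-cKO replicate 2, at 65.1 CPM. In SAP97-cKO against control, 46 genes were lower and 2 higher at an FDR under 0.25, the threshold of the study, in edgeR's quasi-likelihood test.

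None of the 10 interneuron genes passed that threshold, against a background of 0.295% of the genes tested. At an unadjusted p under 0.05, 1 of the 10 (Pvalb, lower) passed, while 11.7% of all genes tested did so, 7.01% of them lower and 4.73% higher. No gene of the 10 had control and SAP97-cKO values that did not overlap, against 6.25% of all genes. Of the 10 log2 fold changes 6 were below 0 and 4 above, with a median of -0.03, and over all genes tested the median was -0.01, with 52.8% below 0. The 95% interval lay inside a 1.5-fold change either way for 6 genes (Gad1, Gad2, Slc32a1, Sst, Npy and Cck) and inside a 2-fold change for 9, the exception being Calb2. In bulk tissue, fewer cells of a type and less RNA per cell cannot be told apart.

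**Figure D1:**
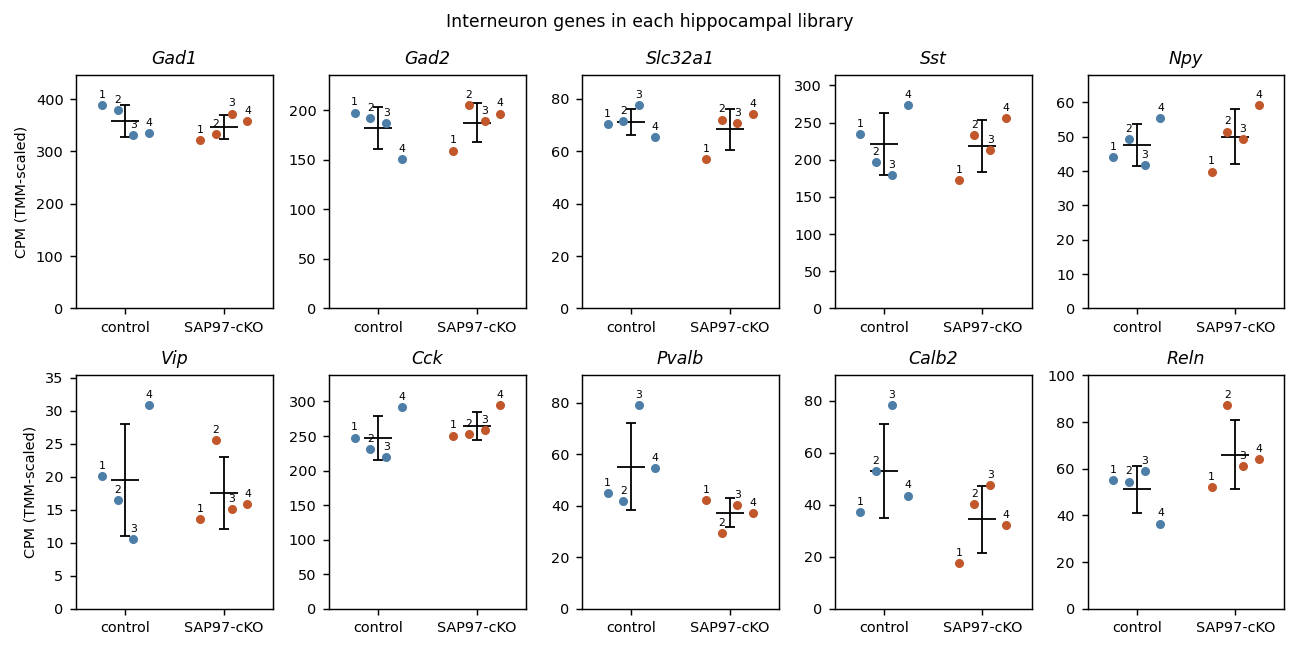
Level of each interneuron gene in CPM (TMM-scaled, linear axes from 0) in each control (blue) and SAP97-cKO (orange) library, numbered by replicate, with the mean and SD of the 4 libraries of each genotype. The genotypes overlapped for each of the 10 genes, for Pvalb only through control replicate 2 at 41.8 CPM and SAP97-cKO replicate 1 at 42.0 CPM.

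The genes that every GABAergic neuron uses differed little between the genotypes. Gad1, which encodes GAD67 (chr2:70553072-70602014, plus strand), was at 389, 379.7, 331 and 335 CPM in control replicates 1 to 4 and at 322, 334, 372 and 358 CPM in SAP97-cKO replicates 1 to 4. One SAP97-cKO library, replicate 1, lay below the control range and the others inside it, and the log2 fold change was -0.05 (SE 0.080, 95% interval -0.23 to 0.13, adjusted p = 0.819 by edgeR). Gad2, which encodes the vesicle-associated enzyme GAD65 (chr2:22622205-22693874, plus strand), was at 198, 192, 187 and 151 CPM in control and at 159, 205, 189 and 196 CPM in SAP97-cKO. One library of each genotype, control replicate 4 and SAP97-cKO replicate 1, was lower than the other 6, and the log2 fold change was 0.04 (SE 0.10, 95% interval -0.19 to 0.27, adjusted p = 0.879 by edgeR). Slc32a1, which encodes the vesicular GABA transporter (chr2:158610767-158615748, plus strand), was at 70.3, 71.5, 77.6 and 65.4 CPM in control and at 56.9, 72.1, 70.8 and 74.1 CPM in SAP97-cKO. The other SAP97-cKO libraries lay inside the control range, replicate 1 lay below it, with a log2 fold change of -0.06 (SE 0.091, 95% interval -0.26 to 0.15, adjusted p = 0.813 by edgeR). In SAP97-cKO replicate 1 both Gad1 and Slc32a1 had their lowest level of the 8 libraries. Exons of Slc32a1 share 697 bp with the antisense gene Gm14205, and the sources used here do not state whether the counting used strand.

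The ratio of the decarboxylase genes was also close between genotypes. Per exon length, Gad1 was at 1.52 ± 0.141 times Gad2 in control (SD, n = 4) and at 1.43 ± 0.136 times Gad2 in SAP97-cKO (SD, n = 4), with a two-sided exact permutation p of 0.429 (the smallest p that 4 against 4 allow is 0.0286). The same ratio of Gad1 to Slc32a1 lay between 1.56 and 2.07 over the 8 libraries (exact permutation p = 0.886).

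Among the neuropeptide genes, none differed beyond the spread between mice. Sst, the marker of dendrite-targeting interneurons, was at 234, 196, 179.6 and 274 CPM in control replicates 1 to 4 and at 173, 233, 213 and 256 CPM in SAP97-cKO. The range of the control mice alone was wider than the difference of the means, 221 ± 41.9 against 218 ± 35.3 CPM (SD, n = 4 each), and the log2 fold change was -0.02 (SE 0.15, 95% interval -0.34 to 0.31, adjusted p = 0.973 by edgeR). Sst (chr16:23889573-23890958, minus strand) lies 7.77 Mb from Dlg1 (chr16:31663443-31875129, plus strand) on the chromosome that carries the floxed allele. Npy, encoding neuropeptide Y (chr6:49822710-49829507, plus strand), was at 44.0, 49.2, 41.6 and 55.5 CPM in control and at 39.8, 51.5, 49.3 and 59.2 CPM in SAP97-cKO. Its genotypes overlapped over most of their range, with a log2 fold change of 0.07 (SE 0.13, 95% interval -0.21 to 0.35, adjusted p = 0.836 by edgeR). Cck, encoding cholecystokinin (chr9:121489824-121495694, minus strand), was at 248, 231, 219 and 292 CPM in control and at 251, 253, 259 and 294 CPM in SAP97-cKO. All 4 SAP97-cKO libraries were above 3 of the 4 controls and control replicate 4 was the second highest of the 8 libraries, with a log2 fold change of 0.09 (SE 0.097, 95% interval -0.12 to 0.31, adjusted p = 0.694 by edgeR). Vip, encoding vasoactive intestinal peptide (chr10:5639218-5647617, plus strand), was at 20.1, 16.5, 10.5 and 30.8 CPM in control and at 13.6, 25.6, 15.1 and 15.9 CPM in SAP97-cKO. Control replicates 3 and 4 were the lowest and the highest of the 8 libraries for Vip, its coefficient of variation in control was 43.8% against 8.39% for Gad1, and its log2 fold change of -0.15 had a wide interval (SE 0.30, 95% interval -0.81 to 0.51, adjusted p = 0.855 by edgeR).

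Some libraries were high or low for several neuropeptide genes. Control replicate 4 and SAP97-cKO replicate 4 were the highest libraries for Sst, Npy and Cck, and control replicate 4 was also highest for Vip, while Vip in SAP97-cKO replicate 4 was at 15.9 CPM, inside its range. SAP97-cKO replicate 1 and control replicate 3 were the lowest for Sst, Npy and Vip, while Cck in SAP97-cKO replicate 1 was at 251 CPM, inside its range. Per exon length, Sst was at 3.64 ± 0.474 times Npy in control and at 3.43 ± 0.0792 times Npy in SAP97-cKO (SD, n = 4 each, exact permutation p = 0.40), and this ratio stayed between 3.13 and 4.18 while Sst itself varied between 173 and 274 CPM.

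**Figure D2:**
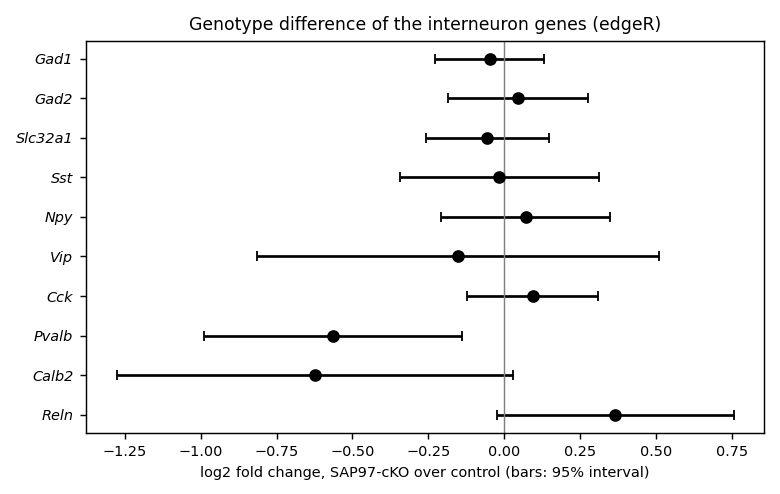
Log2 fold change, SAP97-cKO over control, of each interneuron gene with its 95% interval from edgeR. The interval of Pvalb, -0.99 to -0.14, was the only one of the 10 that did not include 0, and none of the 10 passed an FDR of 0.25.

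Both calcium-binding protein genes had lower means in SAP97-cKO, and neither passed the FDR threshold in the main edgeR test. A fit with same-numbered libraries as blocks brought both past it, among 234 lower and 22 higher genes, but the numbers were not taken to pair the mice. Pvalb, encoding parvalbumin, the calcium buffer of fast-spiking interneurons (chr15:78191114-78206400, minus strand), was at 44.8, 41.8, 79.0 and 54.7 CPM in control replicates 1 to 4 and at 42.0, 29.4, 40.4 and 37.2 CPM in SAP97-cKO. The SAP97-cKO libraries lay below the controls but for SAP97-cKO replicate 1, which was just above control replicate 2. The means of 55.1 ± 16.9 and 37.3 ± 5.59 CPM (SD, n = 4 each) put SAP97-cKO at 67.7% of control. The log2 fold change was -0.56 (SE 0.19, 95% interval -0.99 to -0.14), with an unadjusted p of 0.0141 and an adjusted p of 0.353 by edgeR, and the exact permutation test gave p = 0.0571. Ordered by edgeR's p, Pvalb was in place 650 of the 16251 genes tested. Its call depended on the tool and on the libraries. In DESeq2 its adjusted p was 0.134, past the threshold, as were 6.75% of the genes tested by that tool, while in limma-voom, which called 0.308% of genes, none of the 10 interneuron genes passed. In edgeR it passed without control replicate 1 (adjusted p = 0.206). That fit called 960 genes lower and 715 higher, against 46 and 2 with all libraries. Without control replicate 3, the highest library, the log2 fold change of Pvalb was -0.33 (unadjusted p = 0.0403, adjusted p = 0.606 by edgeR). Its unadjusted p was under 0.05 in each of the 15 alternatives that were run. These alternatives reuse the same libraries, and 1167 to 2734 genes were under 0.05 in them.

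Calb2, encoding calretinin (chr8:110137502-110168210, minus strand), was at 37.2, 53.0, 78.2 and 43.5 CPM in control and at 17.7, 40.1, 47.5 and 32.1 CPM in SAP97-cKO. Control replicate 3 was again the highest library and SAP97-cKO replicate 1 the lowest, a 4.42-fold range that was the widest of the 10 genes, and the genotypes overlapped. The means were 53.0 ± 18.0 and 34.4 ± 12.8 CPM (SD, n = 4 each), and the log2 fold change was -0.62 (SE 0.29, 95% interval -1.28 to 0.03, adjusted p = 0.435 by edgeR, exact permutation p = 0.143). Without control replicate 3 the log2 fold change was -0.36 (adjusted p = 0.682 by edgeR), and without SAP97-cKO replicate 1 it was -0.40 (adjusted p = 0.490 by edgeR). Over all libraries left out in turn, it ranged from -0.81 to -0.36.

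Markers of thalamic neurons were highest in the same library as Pvalb and Calb2. The summed level of 6 such markers (Tcf7l2, Prkcd, Rgs16, Lef1, Slc17a6 and Tnnt1) was 60.5, 100.4, 141 and 76.7 CPM in control replicates 1 to 4 and 82.9, 81.7, 63.8 and 50.2 CPM in SAP97-cKO. Control replicate 3, the highest library for Pvalb and Calb2, was also the highest for this list, and its Tcf7l2 was at 15.1 CPM while the other 7 libraries lay between 3.59 and 7.14 CPM. All 6 log2 fold changes of the list were below 0, as were those of 52.8% of all genes tested, and their median was -0.52. At an unadjusted p under 0.05, 1 gene was lower, as were 7.01% of all genes tested. None of the list passed the FDR threshold, and none was at 0 in all libraries. The part of these markers in the results for Pvalb and Calb2 was not tested.

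Reln, encoding the secreted glycoprotein reelin (chr5:21884454-22344702, minus strand), was at 55.0, 54.5, 59.1 and 36.5 CPM in control replicates 1 to 4 and at 52.0, 87.2, 61.0 and 64.1 CPM in SAP97-cKO. SAP97-cKO replicate 2 was highest and control replicate 4 lowest, and SAP97-cKO replicate 1 lay inside the range of the controls. The means were 51.3 ± 10.1 and 66.1 ± 14.95 CPM (SD, n = 4 each), and the log2 fold change was 0.37 (SE 0.18, 95% interval -0.02 to 0.75, adjusted p = 0.440 by edgeR, exact permutation p = 0.171). It was 0.20 without SAP97-cKO replicate 2 (adjusted p = 0.592 by edgeR) and 0.23 without control replicate 4 (adjusted p = 0.546 by edgeR). SAP97-cKO replicate 2 also had the highest summed level of 6 markers of striatal projection neurons, 143 CPM against 65.9 to 120.7 CPM in the other 7 libraries. The part of these markers in the result for Reln was not tested. Exons of Reln share 246 bp with the antisense gene Gm10475, which had 11 counts over the 8 libraries.

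**Figure D3:**
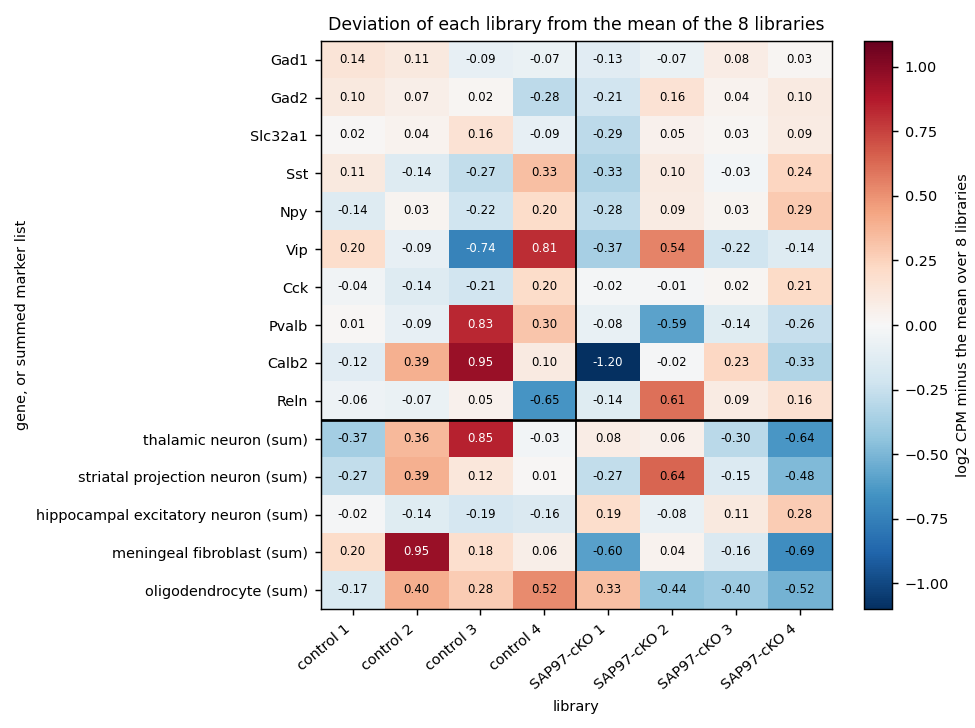
Difference of the log2 CPM of each interneuron gene, and of the summed CPM of 5 marker lists, from its mean over the 8 libraries, by library. Pvalb, Calb2 and the thalamic list were each highest in control replicate 3 (0.83, 0.95 and 0.85), and Calb2 was lowest in SAP97-cKO replicate 1 (-1.20).

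Levels can be compared between genes only per length, and for this the counts were divided by the length of all annotated exons of a gene (RPKM). In control, Sst was the most abundant of the 10 at 306 ± 58.1 RPKM (SD, n = 4), followed by Cck at 189.7 ± 24.4, Npy at 84.1 ± 10.9, Pvalb at 52.9 ± 16.2, Gad1 at 46.9 ± 3.94, Gad2 at 31.0 ± 3.60, Calb2 at 30.4 ± 10.3, Slc32a1 at 25.5 ± 1.79, Vip at 5.73 ± 2.51 and Reln at 2.16 ± 0.42 RPKM. Sst was above Cck, Cck above Npy, Gad1 above Gad2 and Slc32a1 above Vip in 8 of 8 libraries with ranges that did not overlap. Vip was above Reln within each of the 8 libraries, with overlapping ranges. Npy was above Pvalb in 7 libraries, the exception being control replicate 3, and in SAP97-cKO their ranges did not overlap. Gad2 was above Calb2 in 7 libraries, with overlapping ranges. Calb2 was above Slc32a1 in 4 libraries and Pvalb above Gad1 in 2, with overlapping ranges over the 8 libraries. In SAP97-cKO alone, Gad1 at 42.1 to 48.7 RPKM was above Pvalb at 28.3 to 40.4 RPKM, without overlap.

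Other genes of the GABA pathway were taken from a list of 9 that take up or break down GABA or supply its precursor. Of these, 5 had log2 fold changes below 0 and 3 were lower at an unadjusted p under 0.05, as were 7.01% of all genes tested. The FDR threshold was passed by 2, both lower (the background for lower genes was 0.283%). The 2 were Slc6a12, which encodes the betaine and GABA transporter BGT1, and Slc6a13, which encodes the GABA transporter GAT2. Slc6a12 was low, at 2.51, 3.41, 1.09 and 2.21 CPM in control and 0.790, 0.799, 0.569 and 0.278 CPM in SAP97-cKO, and the genotypes did not overlap, as for 6.25% of all genes tested. It fell by 1.91 on the log2 scale (SE 0.39, adjusted p = 0.247 by edgeR). Slc6a13 was at 13.2, 13.6, 10.2 and 13.8 CPM in control and 6.18, 7.88, 5.91 and 3.05 CPM in SAP97-cKO, again without overlap. It fell by 1.14 on the log2 scale (SE 0.24, adjusted p = 0.2496 by edgeR).

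Both transporters lay at the threshold and are known from the meninges and from barrier cells. Leaving out control replicate 2, control replicate 4, SAP97-cKO replicate 3 or SAP97-cKO replicate 4 ended both calls, with adjusted p-values of 0.302 to 0.646 in edgeR, and leaving out SAP97-cKO replicate 2 ended that of Slc6a12 at 0.278. Markers of meningeal fibroblasts also had lower summed levels in SAP97-cKO. Their 12 log2 fold changes were all below 0, with a median of -1.08, 9 genes at an unadjusted p under 0.05 (7.01% of all genes tested were lower at that p) and 5 past the FDR threshold (0.283% of all genes), and their summed level of 292 to 542 CPM in control and 174 to 289 CPM in SAP97-cKO did not overlap. This list was chosen with earlier results of these data known. Its 5 genes past the threshold are among those that the study lists as differing in the same libraries. The counts for the list are therefore only a description. The part of these cells in the results for Slc6a12 and Slc6a13 was not tested. Slc38a2, which encodes the glutamine transporter SNAT2, was at 149.8 ± 11.2 and 122 ± 12.8 CPM (SD, n = 4 each), with a log2 fold change of -0.30 (SE 0.088, adjusted p = 0.332 by edgeR). Its genotypes did not overlap, as for 6.25% of all genes tested.

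None of 16 transcription factor genes of interneurons passed the FDR threshold in the main edgeR test, and 5 of their log2 fold changes were below 0. Dlx1, expressed in interneurons that come from the ganglionic eminences and the most abundant of the list per exon length, was at 32.7 ± 1.89 CPM in control and 32.9 ± 4.83 CPM in SAP97-cKO (SD, n = 4 each, adjusted p = 0.978 by edgeR). At an unadjusted p under 0.05, 1 gene was higher and 1 lower, a share near the 11.7% of all genes tested. Sox6, which acts in maturing Sst and Pvalb interneurons and also in oligodendrocyte precursors, was at 22.1, 20.9, 21.3 and 21.7 CPM in control and 24.8, 27.5, 24.3 and 24.4 CPM in SAP97-cKO. The genotypes did not overlap, as for 6.25% of all genes tested, and the log2 fold change was 0.23 (SE 0.069, adjusted p = 0.336 by edgeR). Maf, a factor of the same interneuron lineage, was at 29.8 ± 2.52 and 25.6 ± 1.45 CPM (SD, n = 4 each), with a log2 fold change of -0.22 (SE 0.080, adjusted p = 0.372 by edgeR).

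None of 27 other interneuron subclass genes passed the FDR threshold in that test either, with 14 log2 fold changes below 0 and a median that rounds to 0.00. Of the 27, 1 was lower and 1 higher at an unadjusted p under 0.05 (7.01% and 4.73% of all genes tested). Cnr1, the cannabinoid receptor gene of Cck basket cells and the most abundant of the list per exon length, was at 227 ± 30.3 and 248 ± 42.0 CPM (SD, n = 4 each, adjusted p = 0.693 by edgeR). Sncg, a marker of the same Cck cells, was at 4.23, 3.68, 12.7 and 4.67 CPM in control and 3.08, 2.77, 2.79 and 2.25 CPM in SAP97-cKO. The genotypes did not overlap for Sncg, as for 6.25% of all genes tested. As for Pvalb and Calb2, control replicate 3 was highest, and the log2 fold change of -1.21 (SE 0.37, adjusted p = 0.339 by edgeR) was -0.61 without that library (adjusted p = 0.497 by edgeR). Nos1, which encodes the neuronal nitric oxide synthase, was at 103 ± 21.4 and 135 ± 18.5 CPM (SD, n = 4 each), with a log2 fold change of 0.39 (SE 0.15, adjusted p = 0.376 by edgeR).

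Receptors and signalling partners of the peptides and of reelin had mostly log2 fold changes above 0, and none passed the threshold in the main edgeR test. Of 15 listed genes 13 were tested, 2 had log2 fold changes below 0 (52.8% of all genes tested did) and the median was 0.16. Vipr1 and Sstr3 were the 2 that were higher at an unadjusted p under 0.05, and none was lower. Vipr1, a receptor of VIP, was at 16.6, 13.6, 11.3 and 11.9 CPM in control and 18.5, 18.2, 19.8 and 16.5 CPM in SAP97-cKO. The ranges met between control replicate 1 and SAP97-cKO replicate 4, and the log2 fold change was 0.45 (SE 0.12, adjusted p = 0.317 by edgeR). Sstr3, a somatostatin receptor of neuronal primary cilia, was at 31.4 ± 3.79 and 39.4 ± 3.66 CPM (SD, n = 4 each), with a log2 fold change of 0.33 (SE 0.10, adjusted p = 0.341 by edgeR). Npy2r, the presynaptic neuropeptide Y receptor and the most abundant of the list per exon length, was at 66.0 ± 9.01 and 73.9 ± 18.1 CPM (SD, n = 4 each, adjusted p = 0.693 by edgeR). Excitatory neurons express several of these receptors, and 8 of 9 excitatory neuron markers had log2 fold changes above 0, with a median of 0.15 and 3 of them higher at an unadjusted p under 0.05, as were 4.73% of all genes tested. The part of these cells in the receptor values was not tested.

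**Figure D4:**
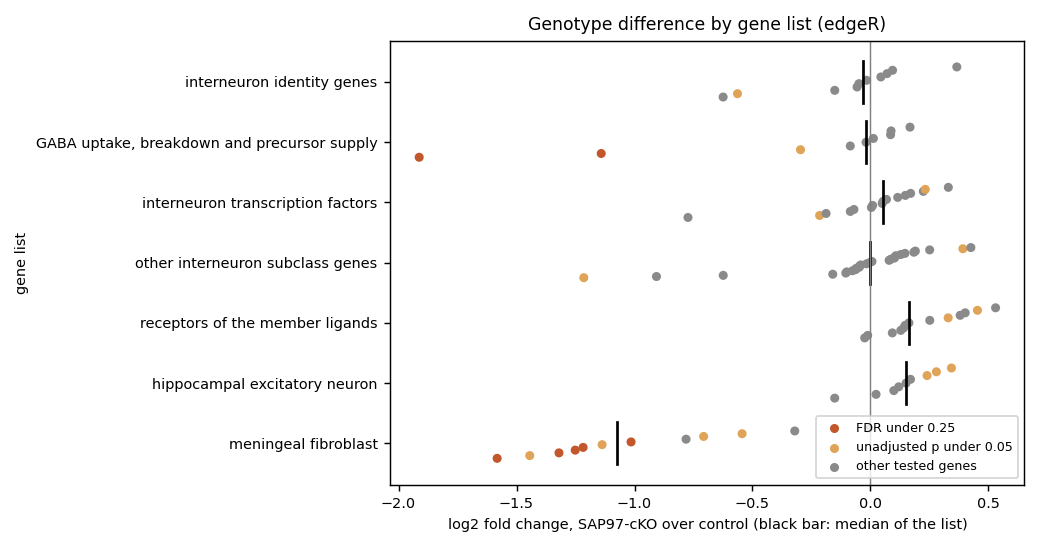
Log2 fold changes, SAP97-cKO over control, of the interneuron genes, of 4 lists of related genes and of 2 lists of cell type markers, with 1 point per tested gene and a bar at the median of each list. Slc6a12 and Slc6a13 were the only genes of the interneuron and related lists past an FDR of 0.25 in the main edgeR test, and the meningeal list had a median of -1.08.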

How the data were processed

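Hippocampal RNA of 8 male mice, 4 per genotype, was sequenced as 1 library per mouse. The authors used STAR 2.5.3a and the mouse build GRCm38.p5 (mm10) for alignment, removed ribosomal and mitochondrial reads, resampled libraries to a common depth and deposited a whole-number count per gene and library. The deposited fold changes, p-values and q-values of the authors' own comparison were not used. The 10 interneuron genes and all gene lists were chosen with earlier results of these data known.

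Counts were filtered with filterByExpr (minimum count 10, minimum total 15), scaled by TMM and compared by edgeR's quasi-likelihood test (edgeR 4.0.16, R 4.3.3), adjusting p by Benjamini-Hochberg over 16251 genes and the study's threshold of an FDR under 0.25. Single values were compared by two-sided exact permutation tests, which enumerate 70 assignments. Alternatives were limma-voom (limma 3.58.1), DESeq2 1.42.0, other scalings and filters, a replicate block and leaving out each library. The test was checked on simulated data. No library was a repeat of another, since pairs had a chi-square per gene between 9.68 and 72.6, above sampling noise.

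Of 25834 identifiers 25696 were matched to GENCODE M21 (GRCm38), the source of coordinates and exon lengths. Named genes were the 10 interneuron genes, Dlg1, the gene of each related list with the smallest p, those at an unadjusted p under 0.05 and the most abundant per exon length, and the 3 genes most like the GABA genes across libraries; 1 of these is not reported here. Plots were drawn with matplotlib 3.10.9.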

Additional observations from a re-analysis of the deposited data

How the results depend on the processing

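Over the 15 alternatives for each of the 10 interneuron genes, 136 of 150 kept the direction and the side of the FDR threshold, 10 turned the direction and 4 brought a gene past the threshold. The count of interneuron genes past the threshold, 0 as reported, was 1 in DESeq2 (Pvalb), 2 with a replicate block (Pvalb, adjusted p = 0.220, and Calb2, adjusted p = 0.0968, in edgeR) and 0 to 1 with each library left out. At an unadjusted p under 0.05, the count of 1 was 2 in DESeq2, 2 with no scaling, 3 with no filter, 3 with the replicate block and 1 to 2 with each library left out, and Pvalb was among them each time. The number with separate genotypes was 1 with no scaling (Pvalb) and 0 to 2 with each library left out. Over all genes, the 46 lower and 2 higher calls were 588 and 445 in DESeq2, 94 and 1 with no scaling, 89 and 15 with no filter, 234 and 22 with the block, and 0 to 960 and 0 to 715 with each library left out. The median of the 10 genes ranged from -0.076 to 0.058 with each library left out. The log2 fold changes that turned direction did so only when a library was left out, and then ranged for Sst from -0.098 to 0.10, for Slc32a1 from -0.095 to 0.029, for Gad2 from -0.035 to 0.12, for Vip from -0.39 to 0.16 and for Npy from -0.018 to 0.17. For the related genes, alternatives were added after seeing the data, and Dlx1 (0.01) turned to -0.0016 in limma-voom, -0.035 with no scaling, -0.00079 with the block and from -0.040 to 0.12 with each library left out. Slc6a12 had an adjusted p of 0.313 in limma-voom, both Slc6a12 and Slc6a13 one of 0.252 with DESeq2 size factors, and Slc6a13 one of 0.261 with at least 10 counts in every library. In DESeq2, which called 6.75% of the genes it tested, their adjusted p-values were lower, 0.00119 and 0.000818. That tool also brought past the threshold Slc38a2 (adjusted p = 0.111), Sox6 (0.112), Sncg (0.0522), Nos1 (0.204), Sstr3 (0.115) and Vipr1 (0.0551), but not Maf (0.286). The same genes passed in edgeR without control replicate 1, Maf again excepted. The cause of these shifts was not tested.

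Same-numbered libraries deviated from their group means with correlations of -0.0577, 0.195, 0.0969 and 0.257, and since 2 of these were not over 0.1, the numbers were not taken to pair the mice. As a hint from the data the other way, 3 of the 4 numbers had their best partner in the same number. With 4 mice per group, the 95% intervals of Vip, Pvalb, Calb2 and Reln did not exclude a 1.5-fold change.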

Other observations

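The genes whose log2 CPM over the 8 libraries was most like the mean of the standardized levels of Gad1, Gad2 and Slc32a1 were Gm7221 (Pearson r = 0.981), Aldoart1 (r = 0.949) and Kri1 (r = 0.949), given as a description over 8 libraries that share the GABA genes' depth and scaling. Gm7221 and Aldoart1 were near the low end of detection, at 0.456 and 0.582 CPM in control and 0.394 and 0.476 CPM in SAP97-cKO, while Kri1 was at 17.2 CPM in both.

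Markers of other cell types had log2 fold changes of both signs. The summed level of 6 oligodendrocyte markers was 5462 to 8797 CPM in control and 4274 to 7720 CPM in SAP97-cKO, with all 6 log2 fold changes below 0, a median of -0.47 and 4 genes lower at an unadjusted p under 0.05, as were 7.01% of all genes tested. The 6 astrocyte markers summed to 4910 to 5605 and 5180 to 6484 CPM, with 5 log2 fold changes above 0 and 2 genes higher at an unadjusted p under 0.05, as were 4.73% of all genes tested. The 10 choroid plexus markers ranged from 176 to 6893 CPM in control and from 102 to 2365 CPM in SAP97-cKO, with all 10 log2 fold changes below 0, a median of -1.48 and none at an unadjusted p under 0.05. The 6 microglial markers lay at 343 to 460 CPM and the 5 endothelial markers at 128 to 219 CPM over all libraries, with none at an unadjusted p under 0.05.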
